A study of Mus musculus with 4 samples.

Results

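The comparison described here sets the early knockout culture against the late wild-type culture: bone marrow-derived cells labelled Nfkb1-/- (C57/B16) after 3 days in Flt3 ligand against cells labelled Wild-type (C57/B16) after 5 days. These are 2 of the 4 RNA-seq libraries of the study, and all 26026 genes of the deposited table enter the comparison. Of these, 11143 passed a filter on low values, with means over the 4 libraries of at least 1 RPKM and at least 20 reads. A tested gene can thus hold fewer reads in a single library. The remaining libraries, wild type at day 3 and knockout at day 5, serve only to place this pair. All 4 cultures were grown in medium with Flt3 ligand, and the medium was replenished at day 3. The labels give neither the number of mice behind a culture, their age or sex, nor the part of Nfkb1 that the knockout removes. The study set out to follow RelA and p50, 2 subunits of the transcription factor NF-kB, during this differentiation, and the pair asks how near the early knockout culture lies to the later wild-type state.

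Genotype and day differ together in this pair, and each group is 1 library, so the effect of the genotype and that of 2 further days in culture cannot be told apart and no difference has a replicate check. Values below are RPKM, read counts divided by transcript length and library size. RPKM can leave a shift between whole libraries in place, so some results are also given with the libraries rescaled. A difference is the log2 of RPKM + 1 in knockout day 3 minus that in wild type day 5, so a positive value means a higher level in knockout day 3. A gene is called higher or lower when this difference is at least 1 in size, and no p-value is given. Ratios of RPKM carry an exact Clopper-Pearson 95% interval from the recovered reads, which covers counting error only.

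Flt3 ligand is the growth factor that drives marrow progenitors towards dendritic cells, the antigen-presenting cells of the immune system. Its cultures yield conventional dendritic cells of type 1 (cDC1, which take up dead cells and present their antigens on class I molecules), conventional dendritic cells of type 2 (cDC2) and plasmacytoid dendritic cells (pDC, producers of type I interferon), while granulocytes and other marrow cells carried over at the start decline. Nfkb1 encodes p105, an inhibitor of NF-kB that is also the precursor of the DNA-binding subunit p50, and p50 dimers bind kappa B sites in the promoters of inflammatory genes. In such mixed cultures fewer cells of one type and less RNA per cell cannot be told apart.

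The libraries held between 15255070 and 16215214 mapped reads, recovered from the steps of the RPKM values, and 70.9% to 75.8% of them lay in listed genes. For the knockout day 3 and wild type day 5 libraries the totals were 16215214 and 16116361 reads, so depth was nearly matched in this pair. The general dendritic markers Flt3 and Itgax were present in every library. Flt3, the receptor for the ligand, stood between 29.9 and 84.8 RPKM, and Itgax, which encodes CD11c, between 11.1 and 55.3 RPKM. Flt3 is also counted with stem and early progenitor genes, and Zbtb46, another dendritic marker, stood at only 0.575 RPKM in knockout day 3 (24 reads). Markers of late neutrophils were present in every library too, with summed levels of 25998 RPKM in knockout day 3, 14846 in wild type day 5, 36562 in wild type day 3 and 3468 in knockout day 5. The part of such cells in the differences below was not tested.

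The targeted gene did not disappear from the table. Nfkb1 measured 56.0 RPKM in knockout day 3, 114 in wild type day 5, 74.8 in wild type day 3 and 64.7 in knockout day 5. Both knockout libraries were below both wild-type libraries, and the ratio of knockout day 3 to wild type day 5 was 0.492 (95% interval 0.473 to 0.512), a difference of -1.01. The RPKM of a gene counts reads from all its exons and cannot tell a disrupted transcript from an intact one, so it is no check of the knockout labels. The other subunit genes lay nearer to each other in this pair, with a difference of -0.42 for Rel, -0.21 for Nfkb2, -0.14 for Rela and 0.02 for Relb.

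Over all tested genes knockout day 3 and wild type day 5 were close, with a limited set of genes far apart. The median absolute difference was 0.167, 86.7% of genes differed by less than 0.5, and Pearson's r across genes was 0.969 (Spearman's rho 0.966). Called genes numbered 381, with 176 higher in knockout day 3 (1.58% of the genes tested) and 205 lower (1.84%). Counts of called list members in this pair, given below, are to be read against these shares. For each of the 381 the interval of the read ratio left out 1, and for 317 it lay wholly above 2 or below 0.5. The genes were called on the same reads, so the first count was all but fixed by the rule. Both counts describe counting error only and are no support for the calls. The genes nearest the limit were C3 (1.003) and Rgs10 (-1.003) just inside and Tspan33 (-0.999) and Ifi204 (0.998) just outside.

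**Figure D1:**
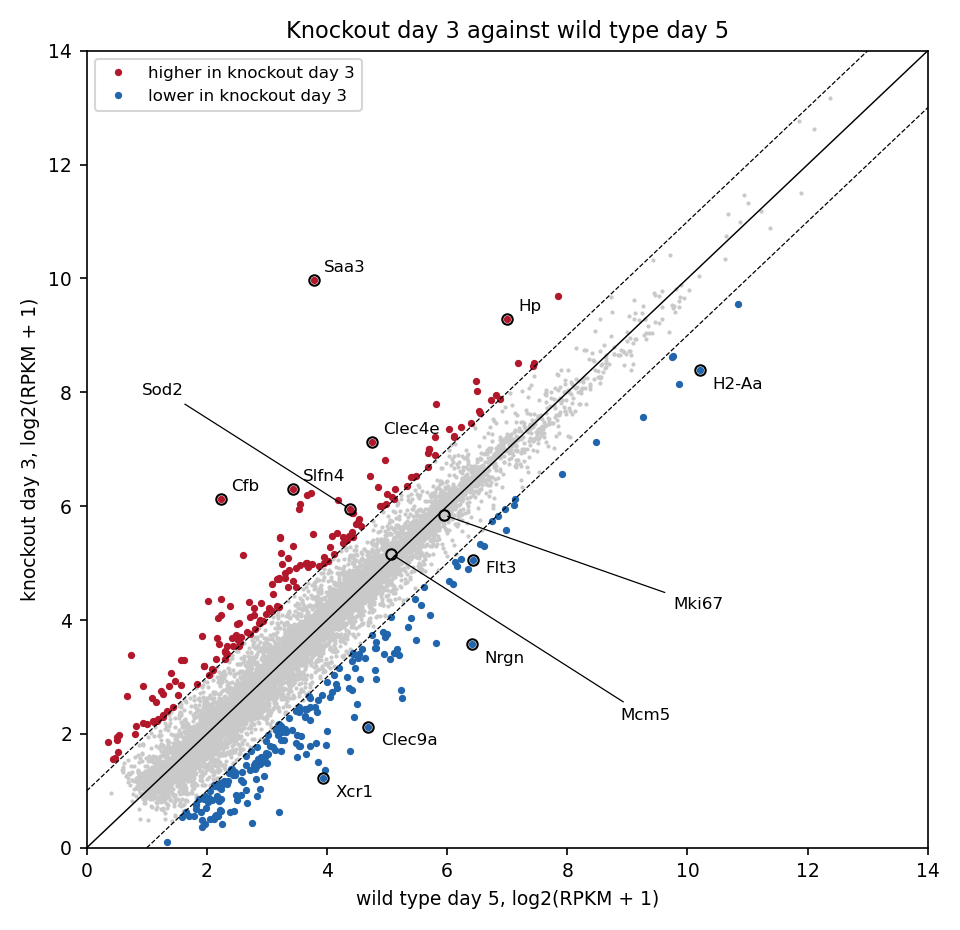
Level of each of the 11143 tested genes in wild type day 5 (x axis) and knockout day 3 (y axis), both as log2(RPKM + 1); the solid line marks equal levels, the dashed lines a difference of 1, and coloured points the 176 genes higher and 205 lower in knockout day 3. Saa3 and Cfb lie far above the upper dashed line, Nrgn, Xcr1 and Clec9a below the lower one, and the proliferation genes Mki67 and Mcm5 near the line of equality.

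Set beside the other 5 library pairs, the answer to how near depends on the measure. By the median absolute difference this pair was the closest of the 6: 0.167, against 0.197 between the knockout days, 0.222 between the genotypes at day 3, 0.231 between the genotypes at day 5, 0.253 between the wild-type days and 0.337 between knockout day 5 and wild type day 3. By the number of called genes it was not: 138 genes (1.24%) were called between the genotypes at day 3, 347 (3.11%) between the knockout days and 360 (3.23%) between the wild-type days, against 381 (3.42%) here, 426 (3.82%) between the genotypes at day 5 and 786 (7.05%) in the opposite cross pair, knockout day 5 minus wild type day 3. Pearson's r was likewise highest between the genotypes at day 3 (0.978). These pairs share libraries and genes are not replicates, so the values are a description.

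The level of wild type day 3 bears on this order. The median difference over all genes was -0.003 in this pair but 0.138 for knockout day 3 minus wild type day 3, 0.162 for wild type day 5 minus wild type day 3 and 0.176 for knockout day 5 minus wild type day 3. Scaled to equal median ratios, these 3 became -0.016, 0.009 and 0.001. The median absolute difference of the pair was then 0.166 and still the smallest of the 6, with 0.190 between the knockout days and 0.192 between the genotypes at day 3.

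**Figure D2:**
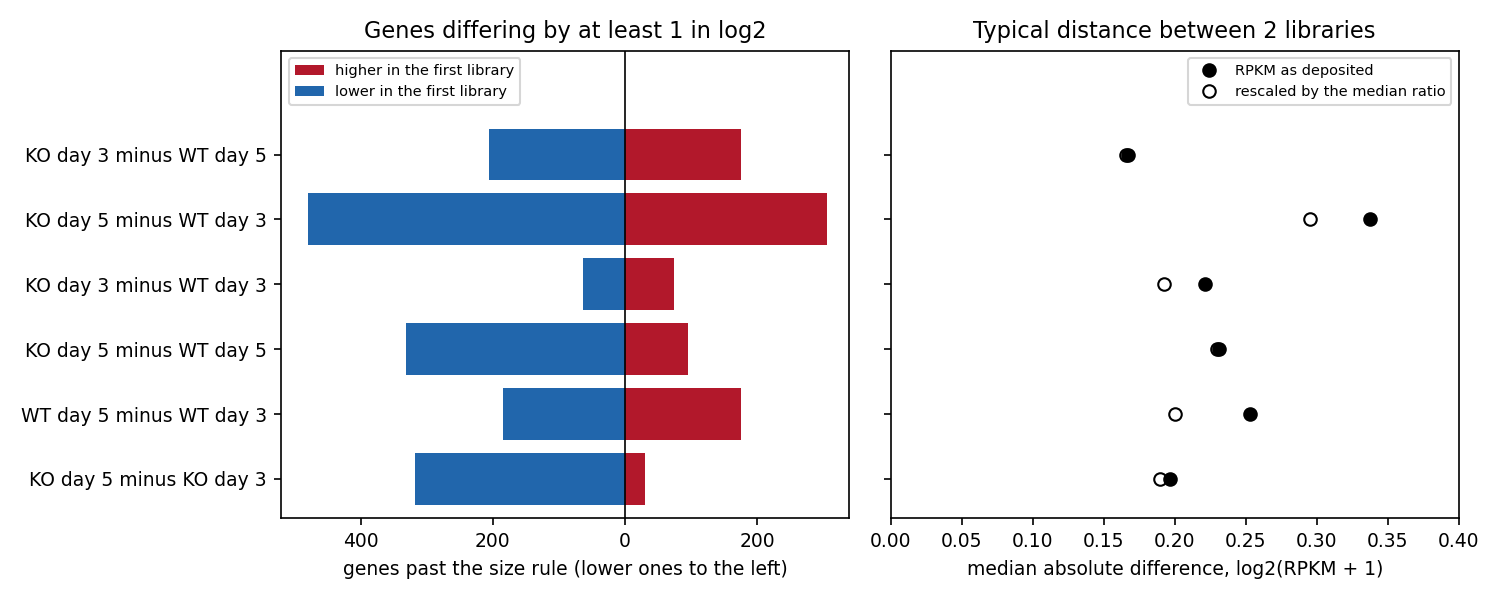
Left, genes past the size rule in each of the 6 library pairs (KO, Nfkb1 knockout; WT, wild type; bars to the right are genes higher in the first library, bars to the left lower). Right, the median absolute difference in log2(RPKM + 1) for values as deposited (filled) and rescaled by the median ratio (open): knockout day 3 against wild type day 5 has the smallest median, 0.167 and 0.166, but knockout against wild type at day 3 has the fewest called genes, 138.

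Gene by gene, the library nearest to knockout day 3 was wild type day 5 for 4237 genes (38% of those tested), knockout day 5 for 3625 (32.5%) and wild type day 3 for 3281 (29.4%). Among the 1214 genes called in at least 1 of the 6 pairs the order was different: wild type day 3 was nearest for 476 (39.2%), wild type day 5 for 412 (33.9%) and knockout day 5 for 326 (26.9%). On values as deposited the late wild-type library was thus the most frequent neighbour of knockout day 3 over all genes. Over the genes with large differences it was the wild-type library of the same day. These counts were not repeated with rescaled libraries. Rescaling by the median ratio lowered the share of genes nearer to wild type day 5 than to wild type day 3 from 57.3% to 53.2%.

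Genes of growth and division were among the closest in this pair. The median absolute difference was 0.094 for 39 measured S phase genes, which copy DNA, and 0.113 for 34 mitosis genes, against 0.167 over all genes. The list medians were 0.05 and -0.02. None of these genes was called in this pair, but with 3.42% of all genes called, lists of this size would hold few calls in any case. Against wild type day 3 the same lists stood at 0.50 and 0.39, above the median of 0.138 over all genes. Knockout day 3 was nearer to wild type day 5 than to wild type day 3 for 38 of 39 S phase genes and 30 of 34 mitosis genes, against 57.3% of all genes. With the libraries rescaled by their median ratio these counts were 34 and 29, and the share of all genes was 53.2%.

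Rfc4, a subunit of the clamp loader of DNA replication, measured 21.5 RPKM in knockout day 3, 17.2 in wild type day 5, 10.7 in wild type day 3 and 23.2 in knockout day 5. It was the S phase gene with the largest difference in the pair, 0.31, and wild type day 3 stood apart below the other libraries. Kif23, a motor protein of cell division, had the largest difference among mitosis genes, -0.56, with 32.7 RPKM in knockout day 3 and 48.6 in wild type day 5. Ccnb1, the cyclin that drives entry into mitosis, measured 16.9 RPKM in knockout day 3, 14.1 in wild type day 5 and 8.32 in wild type day 3. Mki67 and Mcm5, a proliferation antigen and a part of the replicative helicase, were picked for the plots after their values were seen, with differences of -0.10 and 0.11. The order of the libraries differed between them: wild type day 3 was lowest for Mcm5 (21.7 RPKM against 32.4 to 46.6) but not for Mki67 (65.3 RPKM against 56.6 in knockout day 3).

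Of the energy and protein synthesis lists only the respiratory chain was similarly close, with a median absolute difference of 0.096. It was 0.329 for ribosome biogenesis and 0.256 for cytosolic ribosomal proteins, both above the 0.167 over all genes. Of 32 respiratory chain and ATP synthase genes none was called (3.42% of all genes were) and the median was 0.07. Knockout day 3 was nearer to wild type day 5 for 31 of them (27 after rescaling by the median ratio). Ribosome biogenesis genes, which act in the nucleolus, had a higher median of 0.33 with none of 29 called, and all 29 were nearer to wild type day 5 (24 after rescaling). Utp4, a part of the small-subunit processome, was the furthest apart, with 17.5 RPKM in knockout day 3, 10.4 in wild type day 5 and 9.94 in wild type day 3. Cytosolic ribosomal proteins lay the other way, with a median of -0.24, and only 7 of 79 were above their wild type day 5 level (5516 of 11143 over all genes). For this list the nearer library depended on the scaling, with wild type day 5 nearer for 48 of 79 as deposited and 27 after rescaling.

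Dendritic markers were the main group below the late wild-type level. Of 20 measured cDC1 markers, 11 were lower in knockout day 3 and none higher, with a list median of -1.30 against -0.003 over all genes. Wild type day 5 had the highest level of the 4 libraries for 18 of the 20 (28.6% of all genes), and knockout day 3 the lowest for 10 (12.3% of all genes). The list median of knockout day 3 minus wild type day 3 was -0.20 with none called in either direction (0.673% of all genes higher and 0.565% lower).

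Xcr1, a chemokine receptor that defines cDC1, measured 1.34 RPKM in knockout day 3, 14.2 in wild type day 5, 3.00 in wild type day 3 and 2.60 in knockout day 5. Wild type day 5 thus stood well above the other libraries, and the ratio of knockout day 3 to it was 0.0944 (0.0759 to 0.116). Clec9a, the cDC1 receptor for dead cells, had the same order, with 3.37, 24.8, 7.03 and 6.39 RPKM and a ratio of 0.136 (0.116 to 0.159). Tlr11, a Toll-like receptor that senses a parasite profilin, measured 0.538, 8.18, 1.47 and 1.03 RPKM in the same order of libraries, from 28, 423, 72 and 51 reads. Mycl, a Myc family member used by dendritic cells, stood at 1.57 RPKM in knockout day 3 against 14.7 in wild type day 5. For these 4 genes the opposite cross pair differed by 0.28 or less in size, since knockout day 5 and wild type day 3 had similar levels: -0.15 for Xcr1, -0.12 for Clec9a, -0.28 for Tlr11 and -0.05 for Mycl.

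Broader dendritic lists were lower with more exceptions. Pan dendritic markers had a median of -0.70, with 5 of 16 lower and none higher. Itgax measured 11.1 RPKM in knockout day 3, 55.3 in wild type day 5, 18.4 in wild type day 3 and 20.03 in knockout day 5, a difference of -2.22. Zbtb46, a transcription factor of the conventional dendritic lineage, stood at 0.575 RPKM against 3.69 (-1.57). Flt3 itself measured 32.2 RPKM in knockout day 3, 84.8 in wild type day 5, 29.9 in wild type day 3 and 56.6 in knockout day 5. Both day 3 libraries were below both day 5 libraries for Flt3, and the ratio in the pair was 0.380 (0.360 to 0.401).

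For pDC markers the median was -0.54, with 6 of 27 lower and 2 higher. Siglech, a surface lectin of pDC, measured 11.6 RPKM in knockout day 3 and 43.5 in wild type day 5 (-1.82), Runx2, a transcription factor, 10.2 against 34.9 (-1.68), and Ccr9, a homing receptor, 7.73 against 26.8 (-1.67). Dntt, an enzyme that diversifies antigen receptors and is counted with both pDC and B cell genes, went the other way with 14.5 against 4.81 RPKM (1.41). cDC2 markers had a median of 0.02, although 5 of 17 were lower and none higher. Cd209a, a lectin of cDC2 and monocyte-derived cells, stood at 6.86 RPKM in knockout day 3, 27.2 in wild type day 5, 11.8 in wild type day 3 and 2.98 in knockout day 5, so that both knockout libraries were below both wild-type ones.

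Class II presentation genes, which display peptides to CD4+ T cells, had a median of -1.14 with 7 of 14 lower and none higher. H2-Aa, the alpha chain of a class II molecule, measured 333 RPKM in knockout day 3, 1187 in wild type day 5, 651 in wild type day 3 and 357 in knockout day 5. H2-Ab1, its beta chain, measured 282, 933, 514 and 355 RPKM in the same order. Both knockout libraries lay below both wild-type libraries for these 2 genes, and wild type day 5 above wild type day 3. The list was also lower than in wild type day 3, with a median of -0.79 and 3 of 14 called. Against the same library the cDC1 list had a median of -0.20 with none called and 5 of 20 above 0. Single cDC1 markers such as Xcr1 (-0.77) and Clec9a (-0.88) nonetheless lay near the class II median. H2-Oa, another member of the class II list, stood at 8.94 RPKM in knockout day 3 and 9.29 in knockout day 5 against 32.0 in wild type day 5 and 27.3 in wild type day 3. Class I presentation genes had a median of 0.20 and none of 14 called (3.42% of all genes were). Genes of the H2 region are near-identical to one another in part, and how the counting split their reads is not known.

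**Figure D3:**
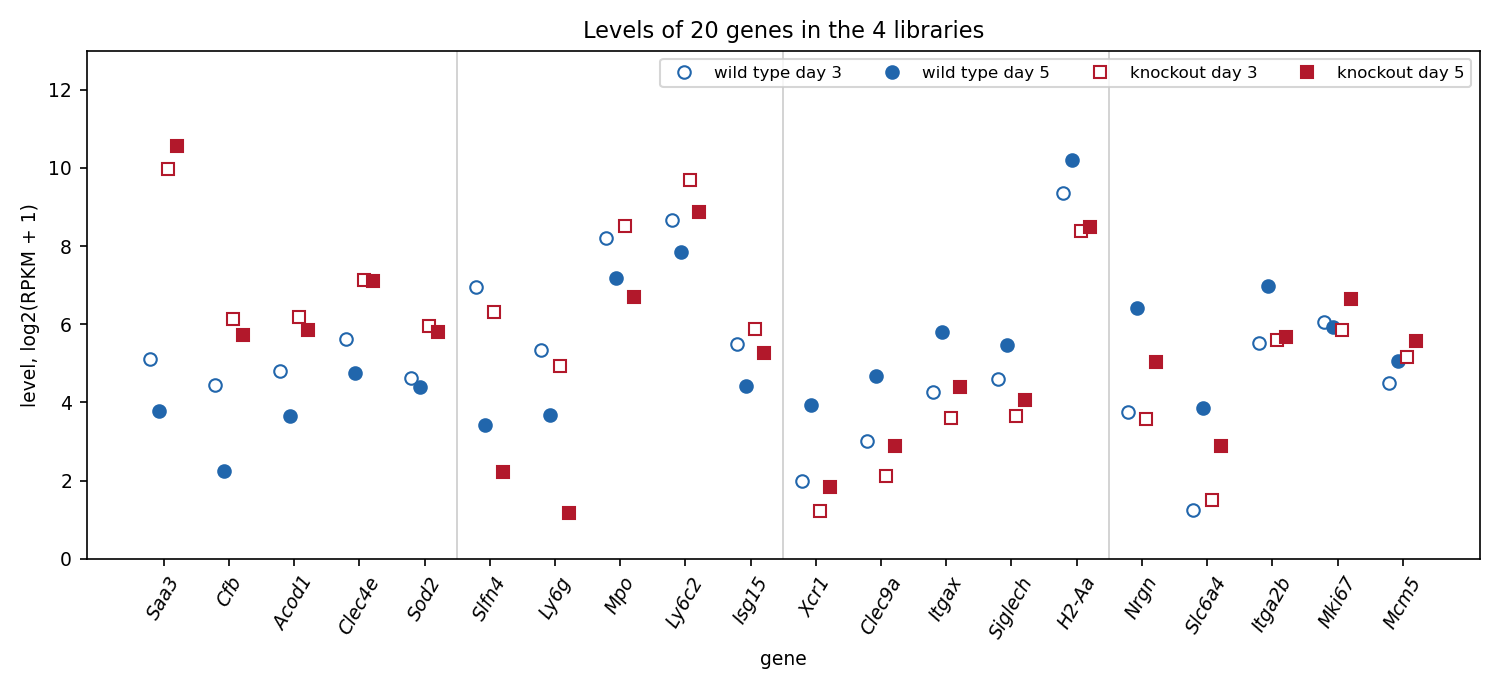
Level of 20 genes as log2(RPKM + 1) in the 4 libraries (circles wild type, squares knockout; open day 3, filled day 5), 1 point per library. From left to right the panels hold inflammatory genes, granulocyte, monocyte and interferon genes, dendritic genes, and megakaryocyte and proliferation genes; wild type day 5 is the lowest of the 4 for Saa3 and the highest for Xcr1, Clec9a and Itgax.

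Megakaryocyte and platelet markers were the second group below wild type day 5. Of 22 markers 12 were lower (1.84% of all genes) and none higher, with a median of -1.15. Wild type day 5 was the highest library for 21 (28.6% of all genes). The same list had a median of 0.06 for knockout day 3 minus wild type day 3 with none called (1.24% of all genes were). Nrgn, which binds calmodulin and is abundant in platelets, had the lowest difference of all named genes: 10.9 RPKM in knockout day 3, 84.4 in wild type day 5, 12.5 in wild type day 3 and 31.7 in knockout day 5 (-2.84). Slc6a4, the serotonin transporter of platelets, measured 1.84, 13.4, 1.38 and 6.45 RPKM in that order, and Tubb1, the tubulin of the platelet marginal band, 9.48, 35.6, 4.61 and 14.3. In these 3 genes both day 5 libraries were above both day 3 libraries. Itga2b, the platelet integrin CD41 and here picked after its values were seen, measured 47.2 RPKM in knockout day 3, 125 in wild type day 5, 44.9 in wild type day 3 and 49.8 in knockout day 5, so that wild type day 5 stood apart from the rest.

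Stromal and endothelial markers were low in all libraries, and 4 of 12 were lower in knockout day 3 and 1 higher. Col1a2, a collagen chain, measured 0.331 RPKM in knockout day 3 (28 reads), 3.77 in wild type day 5 (317 reads), 0.377 in wild type day 3 and 2.16 in knockout day 5. The summed level of the list was 44.4 RPKM in knockout day 3, 66.5 in wild type day 5, 43.9 in wild type day 3 and 43.7 in knockout day 5. Its part in the other differences was not tested.

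Granulocyte genes stood above the late wild-type level. Of 31 late neutrophil markers 11 were higher in knockout day 3 and none lower (median 0.93), and 30 of 31 had a difference above 0 (5516 of 11143 over all genes). Against wild type day 3 the median was -0.50 and 4 of 31 were above 0 (7632 of 11143 over all genes), so that most members lay between the wild-type days. Ly6g, the defining neutrophil antigen and picked after its values were seen, measured 29.4 RPKM in knockout day 3, 11.8 in wild type day 5, 39.7 in wild type day 3 and 1.27 in knockout day 5. Slfn4, a Schlafen gene of myeloid cells, stood at 78.1, 9.78, 124 and 3.64 RPKM in the same order, a ratio of 7.98 (7.34 to 8.69) in the pair. Both day 3 libraries were above both day 5 libraries for these 2 genes. Fpr1, a receptor for bacterial peptides, measured 112 RPKM in knockout day 3, 30.4 in wild type day 5, 71.3 in wild type day 3 and 57.2 in knockout day 5.

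Primary granule and myeloid progenitor genes had a median of 0.89, with 7 of 16 higher and none lower. Mpo, the myeloperoxidase of the granules, measured 366 RPKM in knockout day 3, 144 in wild type day 5, 293 in wild type day 3 and 102 in knockout day 5. Elane, neutrophil elastase, stood at 128, 51.1, 116 and 22.7 RPKM in that order. Hp, haptoglobin, did not share that order: it stood at 625 RPKM in knockout day 3 and 421 in knockout day 5 against 127 in wild type day 5 and 293 in wild type day 3.

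Markers of other marrow lineages varied. B cell markers had a median of 0.52, with 6 of 25 higher and none lower. Rag1, a recombinase of lymphocyte precursors, measured 19.2 RPKM in knockout day 3, 3.04 in wild type day 5, 8.69 in wild type day 3 and 6.18 in knockout day 5. Vpreb3, a gene of B cell precursors, stood at 44.7, 12.6, 27.1 and 10.1 RPKM in that order. Erythroid markers had 5 of 12 higher and none lower. Hbb-b1, a beta globin, measured 43.1, 8.36, 203 and 2.37 RPKM in that order. Hbb-b1 and Hbb-bs are near-identical and hold the same number of reads in both libraries of the pair (441 and 85), so their values are not independent, and the 5 of 12 counts them as separate members. T and NK cell markers had a median of -0.24 with 1 of 19 higher (Cd2, 16.9 RPKM against 7.21) and none lower, while their median against wild type day 3 was -1.07. Mast cell, basophil and eosinophil markers were split, with 2 of 24 higher and 2 lower.

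Inflammatory genes formed the second group above wild type day 5. Of 23 measured inflammatory NF-kB targets 8 were higher and 1 lower, with a median of 0.70, and 20 had a difference above 0 (5516 of 11143 over all genes). Knockout day 3 held the highest level of the 4 libraries for 11 of 23 (18.2% of all genes) and wild type day 5 the lowest for 11 (11.6% of all genes). Against wild type day 3 the median was 0.58 (0.138 over all genes), so the list median stood above both wild-type days. Only 16 of 23 members were above wild type day 3, a share near that of all genes (7632 of 11143). After rescaling by the median ratio the median was 0.41, with 16 of 23 above, against 5332 of 11143 over all genes.

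Saa3, an acute phase protein of inflamed tissue, had the largest difference of all called genes. It measured 1002 RPKM in knockout day 3, 12.7 in wild type day 5, 33.5 in wild type day 3 and 1504 in knockout day 5, and the ratio in the pair was 78.7 (65.1 to 95.9). Cfb, factor B of the alternative complement pathway, stood at 68.9, 3.71, 20.7 and 52.3 RPKM in the same order, a ratio of 18.6 (15.9 to 21.9). Acod1, which makes itaconate in activated macrophages, stood at 72.2, 11.7, 27.0 and 56.5 RPKM, and Clec4e, a receptor for mycobacterial lipid, at 139, 26.0, 48.0 and 136. Sod2, the mitochondrial superoxide dismutase, measured 60.7 RPKM in knockout day 3, 19.96 in wild type day 5, 23.8 in wild type day 3 and 55.2 in knockout day 5. For these 5 genes both knockout libraries were above both wild-type libraries. Ccl22, a chemokine of mature dendritic cells, was the inflammatory target that was lower, with 2.49 RPKM in knockout day 3, 14.9 in wild type day 5, 7.78 in wild type day 3 and 4.30 in knockout day 5.

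Inhibitors and regulators of NF-kB did not pass the rule in this pair. None of 25 was called (3.42% of all genes were) and the median was 0.01. The largest differences were 0.97 for Ikbke, a kinase of the pathway (72.4 RPKM against 36.4), 0.97 for Tnfaip3, which encodes the inhibitor A20 (24.2 against 11.9), 0.95 for Nfkbiz, a nuclear regulator (7.17 against 3.24), and 0.90 for Bcl3, a nuclear partner of p50 (37.9 against 19.8). Without the added 1 RPKM the ratios were 1.987 for Ikbke, 2.042 for Tnfaip3, 2.215 for Nfkbiz and 1.915 for Bcl3. That Tnfaip3 and Nfkbiz were not called thus depended on the pseudocount. Of 33 antioxidant and redox genes 2 were higher, Sod2 and the peroxiredoxin Prdx5 (366 RPKM against 174), and the median was 0.16.

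Complement and pattern recognition genes were higher in 7 of 35 cases and lower in 3 (1.58% and 1.84% of all genes). Monocyte and macrophage markers were higher in 8 of 41 and lower in 2, with a median of 0.27. These lists share members, among them Clec4e and Marco, and Tlr3 and Tlr11 are also counted with the cDC1 markers. Their counts are therefore not separate results. Ly6c2, the antigen of inflammatory monocytes, measured 829 RPKM in knockout day 3, 228 in wild type day 5, 405 in wild type day 3 and 469 in knockout day 5. Marco, a scavenger receptor, stood at 30.8, 8.57, 8.28 and 73.2 RPKM, and Arg1, arginase, at 5.34, 0.588, 1.47 and 1.41 in the same order. Marco was thus higher in both knockout libraries, while Arg1 was high in knockout day 3 alone, from 128 reads against 14 in wild type day 5. Ly6, Pira and Slfn genes belong to families with near-identical members, so single values such as Ly6i (74.2 RPKM against 12.4) and Pira6 (9.44 against 0.659) are uncertain.

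Interferon-stimulated genes were above wild type day 5 as a group: 15 of 44 were higher (1.58% of all genes), none lower and the median was 0.70. A difference above 0 was seen for 42 (5516 of 11143 over all genes). Wild type day 5 was the lowest library for 32 of 44 (11.6% of all genes) and knockout day 3 the highest for 27 (18.2% of all genes). Against wild type day 3 the median was 0.12, and -0.05 after rescaling by the median ratio, so the list stood near the early wild-type level. Iigp1, an interferon-inducible GTPase, measured 8.89 RPKM in knockout day 3, 1.97 in wild type day 5, 4.37 in wild type day 3 and 5.32 in knockout day 5. Isg15, a ubiquitin-like protein, stood at 58.2, 20.4, 44.3 and 37.3 RPKM, and Ifit1, which binds viral RNA, at 31.1, 11.6, 27.6 and 16.1 in the same order.

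Glycolysis and hypoxia genes had a median of 0.75, with 8 of 28 higher (1.58% of all genes), none lower and 26 above 0 (5516 of 11143 over all genes). Knockout day 3 was the highest library for 17 (18.2% of all genes) and wild type day 5 the lowest for 19 (11.6% of all genes). Slc16a3, which exports lactate, measured 32.9 RPKM in knockout day 3, 9.23 in wild type day 5, 19.6 in wild type day 3 and 22.8 in knockout day 5. Slc2a1, a glucose transporter, stood at 23.0, 9.24, 11.6 and 22.3 RPKM in that order, and Pfkl, a phosphofructokinase, at 30.7, 12.5, 17.1 and 30.4. For Slc2a1 and Pfkl the knockout libraries were close to each other and above both wild-type ones.

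**Figure D4:**
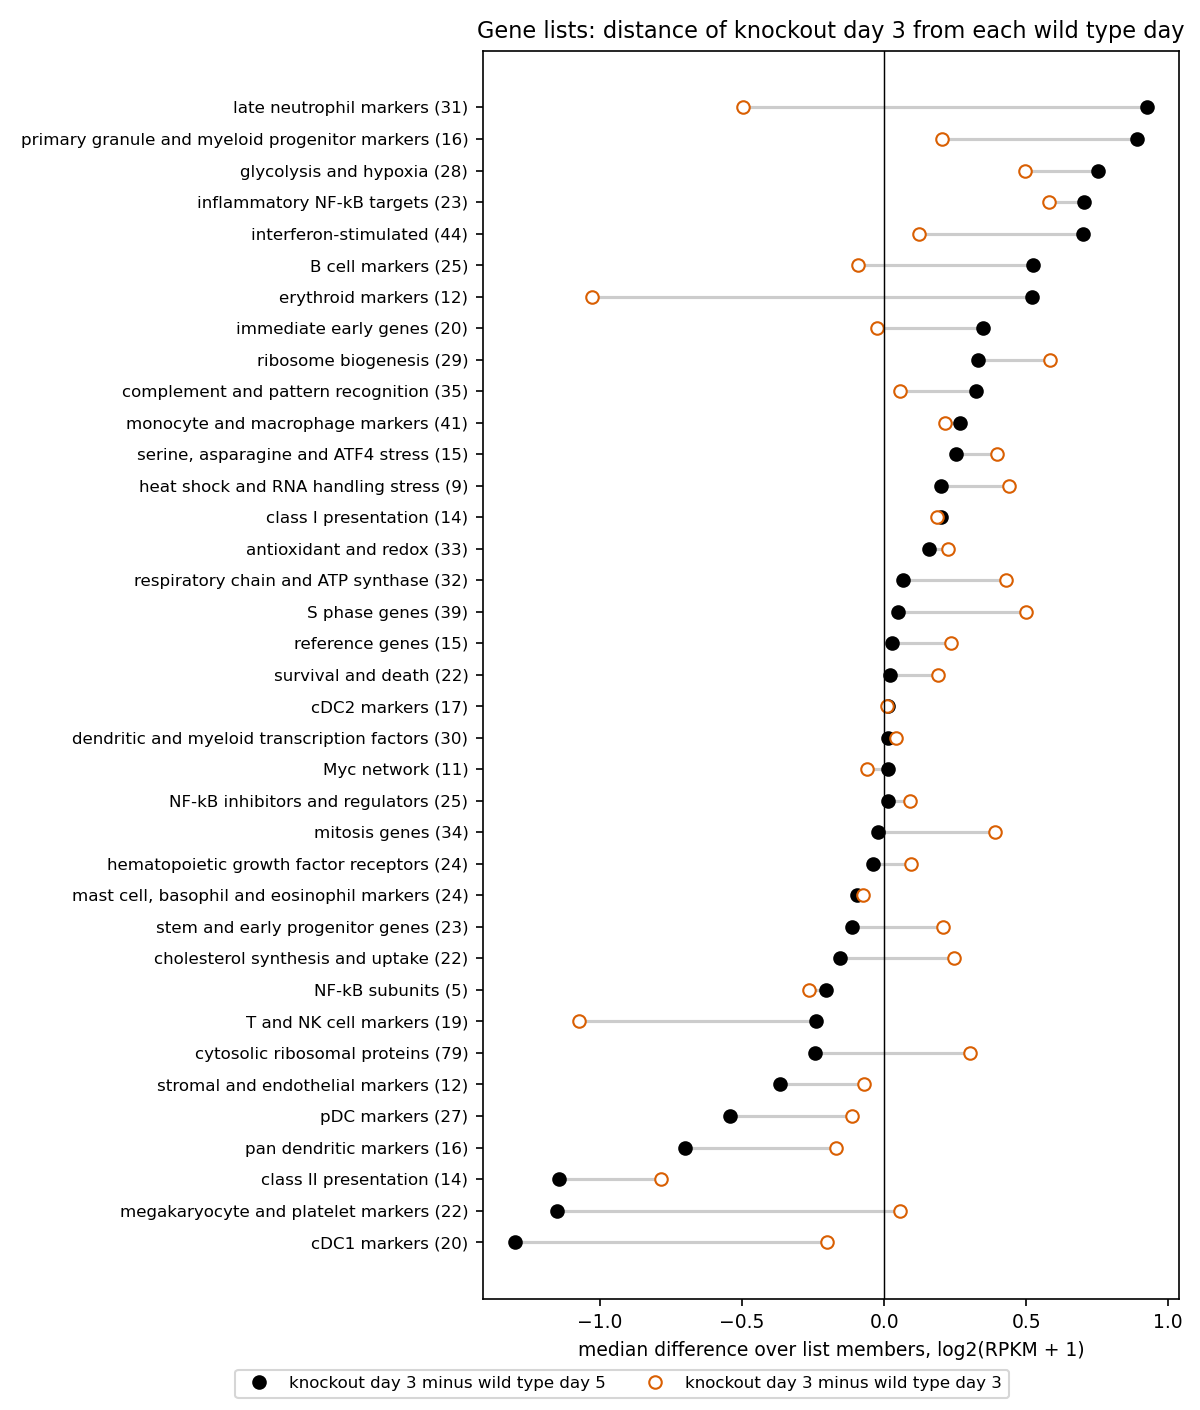
Median difference in log2(RPKM + 1) over the tested members of each gene list (number in brackets) for knockout day 3 minus wild type day 5 (filled) and minus wild type day 3 (open), ordered by the former. S phase, mitosis and respiratory chain lists have filled points near 0 and open points near 0.4 to 0.5, while late neutrophil and erythroid lists have their points on either side of 0, between the wild-type days.

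Since kappa B sites are known from inflammatory promoters, RefSeq promoters (GRCm38.p6) were searched for the letters GGG, any 2 bases and TTTCC in a row, on either strand, in the 250 bases before the start of each gene. Of the 176 higher genes 140 had a promoter in the table and 5 of these held a match (3.57%), as did 2 of 152 lower genes (1.32%), 162 of 8959 tested genes (1.81%) and 464 of 32851 promoters in all (1.41%). The numbers are small and a match is a description, not a site. Stretches of 4 of these promoters follow, from genes on both sides of the comparison, 5′ to 3′ on the gene's strand with the matched letters in capitals: Cxcl2, a chemokine for neutrophils with 2 matches (chr5:90903757-90903866, plus strand), Marco (chr1:120505025-120505099, minus strand), Gbp5, a guanylate-binding protein (chr3:142496812-142496921, plus strand), and Tlr3, a sensor of double-stranded RNA in cDC1 (chr8:45410521-45410630, minus strand).
Cxcl2: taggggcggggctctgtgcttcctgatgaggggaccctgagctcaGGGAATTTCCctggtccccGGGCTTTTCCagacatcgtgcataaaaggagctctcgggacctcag
Marco: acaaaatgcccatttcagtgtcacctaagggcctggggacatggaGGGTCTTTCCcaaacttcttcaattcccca
Gbp5: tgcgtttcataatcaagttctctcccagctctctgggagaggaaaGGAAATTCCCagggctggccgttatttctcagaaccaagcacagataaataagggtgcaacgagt
Tlr3: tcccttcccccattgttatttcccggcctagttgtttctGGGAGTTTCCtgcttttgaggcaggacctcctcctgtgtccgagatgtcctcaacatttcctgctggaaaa

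Cxcl2 and Gbp5 are named for their match, after their values were seen, and the values of Marco are given above. Cxcl2 measured 8.88 RPKM in knockout day 3, 2.06 in wild type day 5, 4.48 in wild type day 3 and 7.08 in knockout day 5. Gbp5 measured 17.5 RPKM in knockout day 3 and 17.4 in knockout day 5 against 5.87 in wild type day 5 and 7.29 in wild type day 3. Tlr3 measured 2.12 RPKM in knockout day 3, 11.5 in wild type day 5, 4.33 in wild type day 3 and 2.64 in knockout day 5. The remaining matches lay before Ms4a4a and Ccr3 among the higher genes and Hdac9 among the lower ones.

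The opposite cross pair, knockout day 5 minus wild type day 3, shares no library with this one and sorts the called genes. Of the 176 higher genes 25 (14.2%) passed the rule there with the same sign, 46 (26.1%) with the opposite sign and 105 (59.7%) were not called there. Of the 205 lower genes 11 (5.37%) passed with the same sign, 11 (5.37%) with the opposite sign and 183 (89.3%) were not called there. In the opposite cross pair 2.75% of all genes were higher and 4.31% lower. The order of the 4 libraries was then counted: all 25 and all 11 genes of the same sign had both knockout libraries above (28.3% of all genes) or below (12.8%) both wild-type ones, and all 46 and all 11 of the opposite sign had both day 3 libraries above (13.5%) or below (26.2%) both day 5 ones. Across the 11143 genes Pearson's r between the 2 cross pairs was -0.066 (Spearman's rho 0.054).

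Ranked by the smaller of their 2 cross-pair differences, the genes higher in both knockout libraries were led by Saa3, Marco, Gbgt1, Alpk1 and Gpr84. Gbgt1, a glycosyltransferase, measured 15.4 RPKM in knockout day 3, 3.53 in wild type day 5, 3.78 in wild type day 3 and 15.3 in knockout day 5. Alpk1, a kinase that senses a bacterial sugar, stood at 23.8, 7.51, 7.62 and 27.3 RPKM, and Gpr84, a receptor for medium-chain fatty acids, at 34.2, 5.08, 10.1 and 31.6. Within each genotype the 2 days were nearly equal for Gbgt1 and Alpk1. Among the genes lower in both knockout libraries, Slc15a2, a peptide transporter, had 0.0770 RPKM in knockout day 3 (5 reads) and 0.0648 in knockout day 5 (4 reads) against 1.53 in wild type day 5 (99 reads) and 2.49 in wild type day 3 (152 reads). Slc39a4, a zinc importer, and Atp6v0d2, a proton pump subunit of macrophages and osteoclasts, showed the same side with 0.330 and 5.86 RPKM in knockout day 3 against 2.90 and 36.5 in wild type day 5.

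By the same ranking the genes higher in both day 3 libraries were led by Slfn4, Hbb-b1, Hbb-bs, Cstdc4 and Slfn1. Cstdc4, a stefin-like protease inhibitor gene, measured 17.9 RPKM in knockout day 3, 4.21 in wild type day 5, 23.5 in wild type day 3 and 0.943 in knockout day 5, the last from 6 reads. Genes lower in both day 3 libraries included Ctla2a, Ctla2b, Slc6a4, Syt13 and Tubb1. Ctla2a, an inhibitor of cathepsins, stood at 5.22 RPKM in knockout day 3 and 4.62 in wild type day 3 against 37.2 in wild type day 5 and 13.2 in knockout day 5. Ctla2b is a close relative with 3.93, 20.9, 2.63 and 10.5 RPKM in the order used above, and reads may be split between the 2.

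Most called genes did not pass the rule in the opposite cross pair, although nearly all of them followed 1 of these orders too. Calls in the remaining pairs were not used in this sorting, and Xcr1, for instance, differed by 1.93 between the wild-type days. Of the 105 higher genes 60 had both knockout libraries above both wild-type ones and 45 both day 3 libraries above both day 5 ones, and of the 183 lower genes 75 and 104 had the corresponding orders below. A gene with its extremes in the 2 libraries of this pair must take 1 of these orders, so the counts say only which of them it is. Of these 183 lower genes 122 differed by less than 0.5 in the opposite cross pair, and of the 105 higher ones 60 did. Xcr1, Rtl8c, Mycl, Tlr11 and Clec9a led the lower ones. Rtl8c, a retrotransposon-derived gene, measured 2.27 RPKM in knockout day 3, 19.9 in wild type day 5, 3.79 in wild type day 3 and 3.14 in knockout day 5. In each of these 5 genes wild type day 5 stood well above the other 3 libraries. Among the higher ones, Pira6, Rag1, Tarm1, Arg1 and Il2ra had their lowest value in wild type day 5 and their highest in knockout day 3. Tarm1, an activating receptor of myeloid cells, stood at 19.6 RPKM in knockout day 3, 3.71 in wild type day 5, 13.5 in wild type day 3 and 14.7 in knockout day 5, and Il2ra, the alpha chain of the interleukin-2 receptor, at 6.17, 0.911, 2.86 and 1.95.

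**Figure D5:**
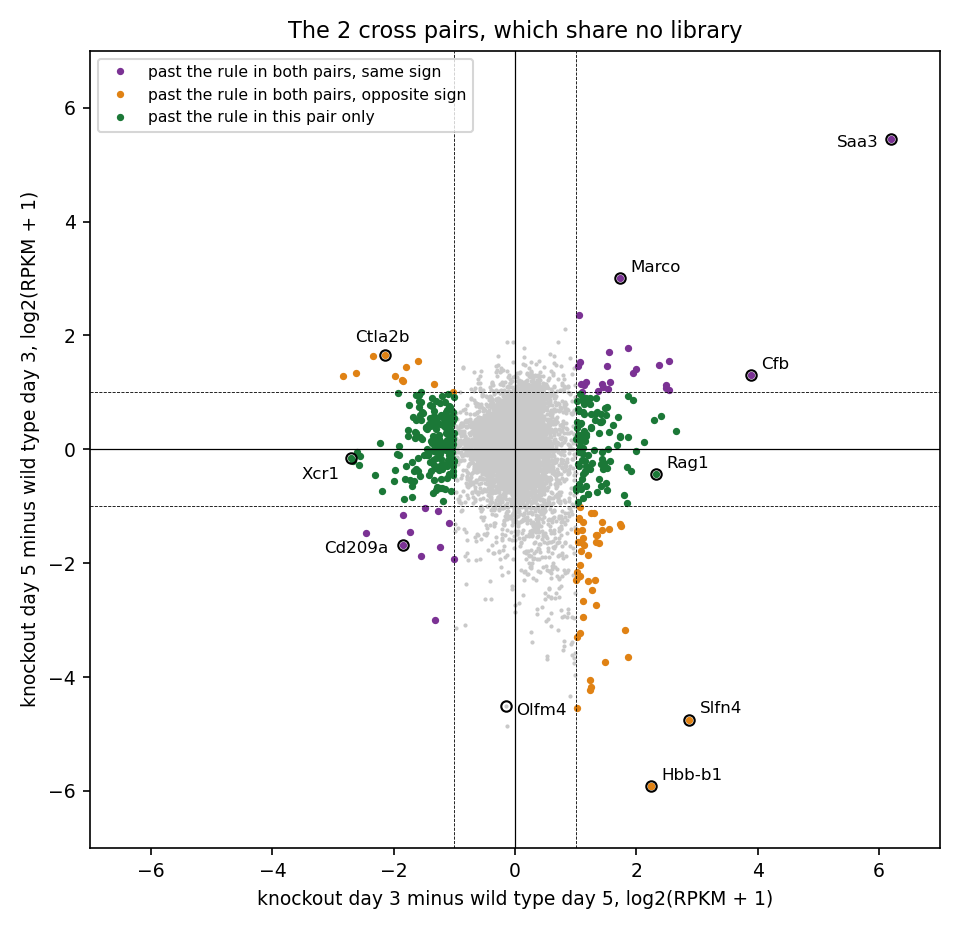
Difference of each tested gene in log2(RPKM + 1) for knockout day 3 minus wild type day 5 (x axis) and knockout day 5 minus wild type day 3 (y axis), which share no library; dashed lines mark differences of 1. Points in the upper right and lower left (25 and 11 genes) pass the rule in both pairs with the same sign, those in the lower right and upper left (46 and 11 genes) with the opposite sign. Coloured points between the horizontal dashed lines (105 higher, 183 lower) are called in knockout day 3 against wild type day 5 but not in the other cross pair.

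A direct view of nearness takes the genes that differed between the wild-type days and asks where knockout day 3 lay between them, with 0% at wild type day 3 and 100% at wild type day 5. Of the 176 genes higher at wild type day 5 (1.58% of all), knockout day 3 was nearer to wild type day 5 for 22 (12.5%) and nearer to wild type day 3 for 154. This share depended on the setting, at 25% with a pseudocount of 0.1 RPKM, 19.8% with a mean of at least 5 RPKM and 5.26% after rescaling by the median ratio, and stayed a minority in each. The median position was 7.12%, 69 lay at or beyond the wild type day 3 level and 4 at or beyond wild type day 5. Of the 184 genes lower at wild type day 5 (1.65% of all), knockout day 3 was nearer to wild type day 5 for 51 (27.7%), with a median position of 37.1%, 138 between the wild-type levels and 10 at or beyond wild type day 5. Because the genes were chosen on the wild-type libraries, counting error in those libraries also places other libraries inside the range.

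Knockout day 5 stood further along the same path. It was nearer to wild type day 5 for 61 of the 176 genes that were higher there, with a median position of 35.6%, and for 159 of the 184 that were lower, of which 141 were at or beyond the wild type day 5 level and the median position was 156%. For the genes that go down along the path knockout day 3 thus lay partway and knockout day 5 past the end, while for the genes that go up both knockout libraries lay nearer to the start.

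Few of the genes that were higher at wild type day 5 were already at that level in knockout day 3. Ube2t, a ubiquitin-conjugating enzyme of DNA repair, measured 6.59 RPKM in knockout day 3, 5.92 in wild type day 5, 2.31 in wild type day 3 and 4.87 in knockout day 5, with 40 to 121 reads. Snrpg, a splicing protein, stood at 49.0, 48.8, 23.9 and 59.98 RPKM in that order. Genes still at the early level included Nrgn, Ctla2a and Col1a2, given above, and Fhl1, a LIM domain protein (2.44 RPKM in knockout day 3, 10.6 in wild type day 5 and 1.97 in wild type day 3).

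Among genes lower at wild type day 5, those already at that level in knockout day 3 included Orm1, an acute phase protein (3.72 RPKM in knockout day 3, 3.74 in wild type day 5 and 10.5 in wild type day 3), Thy1, an antigen of T cells (1.17, 1.40 and 4.76), and Olfm4, of a neutrophil subset (20.3, 22.7 and 52.1). Those still near the early level included G0s2, a lipase inhibitor (11.9, 4.34 and 12.7 RPKM), Vcan, a proteoglycan of monocytes (5.24, 1.12 and 4.40), Ddx60, an antiviral helicase (21.0, 7.59 and 22.4), and Il1f9, a cytokine of the interleukin-1 family (43.1, 18.2 and 48.4). Neutrophil-associated genes stood in both sets, so the list as a whole does not describe each of its members.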

How the data were processed

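RNA-seq of poly(A) RNA was deposited as 1 table of RPKM values for 4 libraries. HISAT2, SAMtools and the mouse build mm9 are named in the submitters' processing notes; which annotation and counting tool were used, and whether strand was, is not given in the sources used here. RPKM values were computed by the authors, per the file headers, and their steps gave whole reads for 100% of values (tolerance 0.003 reads), with transcript lengths from GENCODE used to set the multiple for 711 genes. No value is 0: 7985 genes stand at 1 read in all libraries, and the table does not settle whether 1 was added to every gene, so low ratios are approximate.

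Differences are of log2(RPKM + 1), with no test, as each group has 1 library. Genes needed a mean of at least 1 RPKM and 20 reads; the size rule was 1. Read-ratio intervals are at 95%. Nearest library and position use the same scale. The 38 gene lists, the pair itself and the rules were chosen with earlier results of these data known; 5 listed symbols were not analysed here. Named genes were the NF-kB subunits, Sod2 and Flt3; the 10 highest and 10 lowest; the 5 leading genes of each cross-pair class and direction; up to 4 per list with the largest difference; and the 5 leading genes at either end of the wild-type path, leaving out unnamed models, receptor segments and sex-linked genes. Other pseudocounts, scalings and filters were tried. Python 3.11.15, numpy 2.4.6, pandas 2.3.3 and scipy 1.17.1 were used, and the scripts were tested on simulated data.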

Additional observations from a re-analysis of the deposited data

How the results depend on the processing

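No paired analysis was possible because each group has 1 library, and no library could be left out. No named gene past the rule changed sign under any alternative, and of 37 list medians 7 did, none larger than 0.05 in size as reported. With a pseudocount of 0.1 RPKM 265 genes were higher and 317 lower (582 in all), 28 lower genes passed the opposite cross pair with the same sign, 76 higher and 28 lower ones with the opposite sign, and the wild-type days gave 332 higher genes, with 25% nearer to wild type day 5 in knockout day 3, and 280 lower ones. With a pseudocount of 5 RPKM 84 were higher and 64 lower (148 in all), 11 higher and 3 lower with the same sign in the opposite cross pair, 19 higher and 3 lower with the opposite sign, 54 higher and 58 lower not called there, and the wild-type path held 54 higher and 74 lower genes. Rescaling by the median ratio left 177 and 204 called genes in the pair, with 14 higher ones of the same sign in the opposite cross pair, but gave 114 genes higher at wild type day 5, 5.26% of them nearer to it in knockout day 3, and 280 lower, 38.9% of them nearer. The latter share was 37.4% with libraries rescaled to the same sum, where 158 genes were higher and 224 lower in the pair. Without a filter 17 lower genes had the same sign there and the share was 36.9%. With a mean of at least 5 RPKM 116 genes were lower in the pair, 98 of them not called in the opposite cross pair, and 106 were higher on the wild-type path, 19.8% nearer to wild type day 5. Of 99 named genes past the rule 32 fell short, each only with the pseudocount of 5 RPKM. In the other direction 12 named genes under the rule passed it under some setting, 11 of them only with the pseudocount of 0.1 RPKM. The cDC1 median was -0.74 with that pseudocount and -0.74 with the mean of 5 RPKM. Depth limits genes with few reads. Those with a mean under 20 reads over the 4 libraries were not tested, but tested genes can hold fewer in a single library, as Slc15a2 did (5 reads in knockout day 3).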

Other observations

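Several lists not described above lay near 0 in this pair, in which 3.42% of all genes were called. Reference genes had a median of 0.03, with 1 of 15 higher (Pgk1, also a glycolytic enzyme, 118 RPKM in knockout day 3 against 54.5 in wild type day 5). Cholesterol synthesis and uptake genes had a median of -0.16, with none of 22 called, and heat shock and RNA handling genes one of 0.20, with none of 9 called. Stem and early progenitor genes had 2 of 23 lower, Flt3 and Slamf1 (1.79 RPKM against 6.39), and transcription factors of dendritic and myeloid cells 1 of 30 higher and 5 lower, led by Mycl, Runx2, Zfp366 (0.894 RPKM against 4.61) and Zbtb46. Growth factor receptors had 1 of 24 higher, Tnfrsf1b (175 RPKM against 83.7), and 1 lower, Flt3. Immediate early genes had a median of 0.35 with 1 of 20 higher, Nr4a1 (15.5 RPKM against 5.59). Survival and death genes (22 tested, median 0.02) and genes of the serine, asparagine and ATF4 stress response (15 tested, median 0.25) had none called, and the Myc network 1 of 11, Mycl.

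Some values set wild type day 3 or the counting apart. The pseudogene Ubb-ps measured 157 RPKM in wild type day 3 but 0.790 in knockout day 3, 0.971 in wild type day 5 and 4.43 in knockout day 5. Gapdh was listed at 0.774 to 1.63 RPKM in the 4 libraries, far below other glycolytic genes, and has many near-identical copies. Both values are uncertain for that reason. From the side of wild type day 5, on values as deposited, the nearest library was knockout day 3 for 4663 of 11143 genes (41.8%), knockout day 5 for 3411 (30.6%) and wild type day 3 for 3069 (27.5%). Among the 1214 genes called in at least 1 pair knockout day 3 was again the most frequent (515 genes, 42.4%).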
